A study of Mus musculus with 7 samples.

Results

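The Hox genes are the genes whose symbol is Hoxa, Hoxb, Hoxc or Hoxd followed by a number from 1 to 13 and nothing else. That rule took 39 of the 22447 genes measured, 11 in the HoxA cluster, 10 in HoxB, 9 in HoxC and 9 in HoxD. Hox genes encode homeodomain transcription factors that give cells their position along the body axis, and they sit in clusters in which the order of the genes follows the order of their expression domains from head to tail. A gene with the same number in different clusters belongs to the same paralog group. In the lung, genes from the front and middle of the HoxA and HoxB clusters are known to be expressed in mesenchyme, and Hoxa5 is needed there for the trachea and alveoli to form normally. The clusters are classical targets of Polycomb repression, in which PRC2, with EZH2 as its methyltransferase, marks histone H3 and the trithorax MLL complex works in the opposite direction.

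RNA sequencing was carried out on 7 mouse lung libraries. They comprised 3 libraries from lung tumors with the genotype EZH2 overexpression (OE tumors 1 to 3), 2 from normal lung of the same genotype (OE normal lungs 1 and 2) and 2 from normal lung of wild-type genotype (WT lungs 1 and 2). The promoter, cell type and species of the EZH2 transgene, and the strain, age and number of the mice, were not given in the sources used here. In the labels, growth text describes minced tumor nodules kept in culture while the source is named as lung, so it is not stated whether the tumor RNA came from tissue or from culture. The labels do not say that the libraries of a group came from separate animals, and p-values therefore measure only the spread between these libraries.

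Levels are given in FPKM, the fragments assigned to a gene scaled to the length of its transcript and to the size of the library, so they can be set beside each other between genes. Differences are log2 differences of FPKM + 1 with the standard error (SE) that limma gives, and on this scale the change of a low gene appears smaller than it is. A gene was tested if 2 or more of the 7 libraries reached 1 FPKM, and was called if its Benjamini-Hochberg adjusted p over all 14057 genes tested was under 0.05. Both tumor comparisons use the same 3 tumors, so their results are given side by side and are not independent. For a single gene an exact permutation test cannot give a 2-sided p below 0.2 with 3 libraries against 2, or below 0.333 with 2 against 2, so only the fit across all genes could reach the threshold.

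Ezh2 itself, as the mouse gene symbol, was at 8.48, 23.5 and 22.6 FPKM in OE tumors 1 to 3, at 10.2 and 11.5 FPKM in OE normal lung and at 3.72 and 2.58 FPKM in WT lung. Every library labelled EZH2 overexpression was above both WT lungs, and tumor 1 lay below both OE normal lungs. Tumors exceeded WT lung by 2.10 (SE 0.43, limma adjusted p = 0.0118). The excess of tumors over OE normal lung was 0.58 (SE 0.43, adjusted p = 0.329), and OE normal lung stood above WT lung by 1.53 (SE 0.47, adjusted p = 0.406). FPKM values summed to 405166 to 503550 per library, and the number of reads per library is unknown. Tumor 1 stood apart from the other tumors: across genes its log2 values correlated with those of tumors 2 and 3 at r = 0.897 and 0.894, against r = 0.970 between tumors 2 and 3. Sex-linked genes differed in the same way, with Xist at 0.127 FPKM in tumor 1 and at 74.2 and 60.6 FPKM in tumors 2 and 3. Xist was at 0.816 and 63.6 FPKM in OE normal lungs 1 and 2 and at 0.131 and 0.346 FPKM in the WT lungs. The Y-linked gene Eif2s3y was at 27.4 to 30.7 FPKM where Xist was low and at 0.0295 to 0.0903 FPKM elsewhere. Sex was thus unbalanced between groups, and cannot be told apart from what sets tumor 1 off. Libraries that differ in sex come from different animals. Nkx2-1, the lung epithelial lineage factor, was present in every library, at 175 to 255 FPKM in the tumors and 55.8 to 89.4 FPKM in the normal lungs.

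Hox expression in normal lung came almost wholly from the front and middle of the HoxA and HoxB clusters, in paralog groups 2 to 7. Of the 39 genes, 12 reached 1 FPKM in any library, namely Hoxa2 to Hoxa7 and Hoxb2 to Hoxb7. These 12 genes held 94.9% to 97.4% of the summed Hox FPKM in the 4 normal lungs. Another 19 genes were above 0 in some library but under 1 FPKM in all, and 8 were listed at 0 in every library (Hoxa10, Hoxa11, Hoxc10, Hoxc11, Hoxc12, Hoxd1, Hoxd11 and Hoxd12). The HoxA cluster summed to 23.5 to 34.9 FPKM in the normal lungs and the HoxB cluster to 24.1 to 35.2 FPKM. The HoxC cluster summed to 0.376 to 0.577 FPKM and the HoxD cluster to 0.495 to 1.20 FPKM, and no gene of either exceeded the 0.449 FPKM of Hoxd8 in OE normal lung 2. The boundary lay between paralog groups 7 and 8, since Hoxa7 and Hoxb7 were at 1.16 to 2.44 FPKM in the normal lungs and Hoxb8 at 0.181 to 0.482 FPKM.

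**Figure D1:**
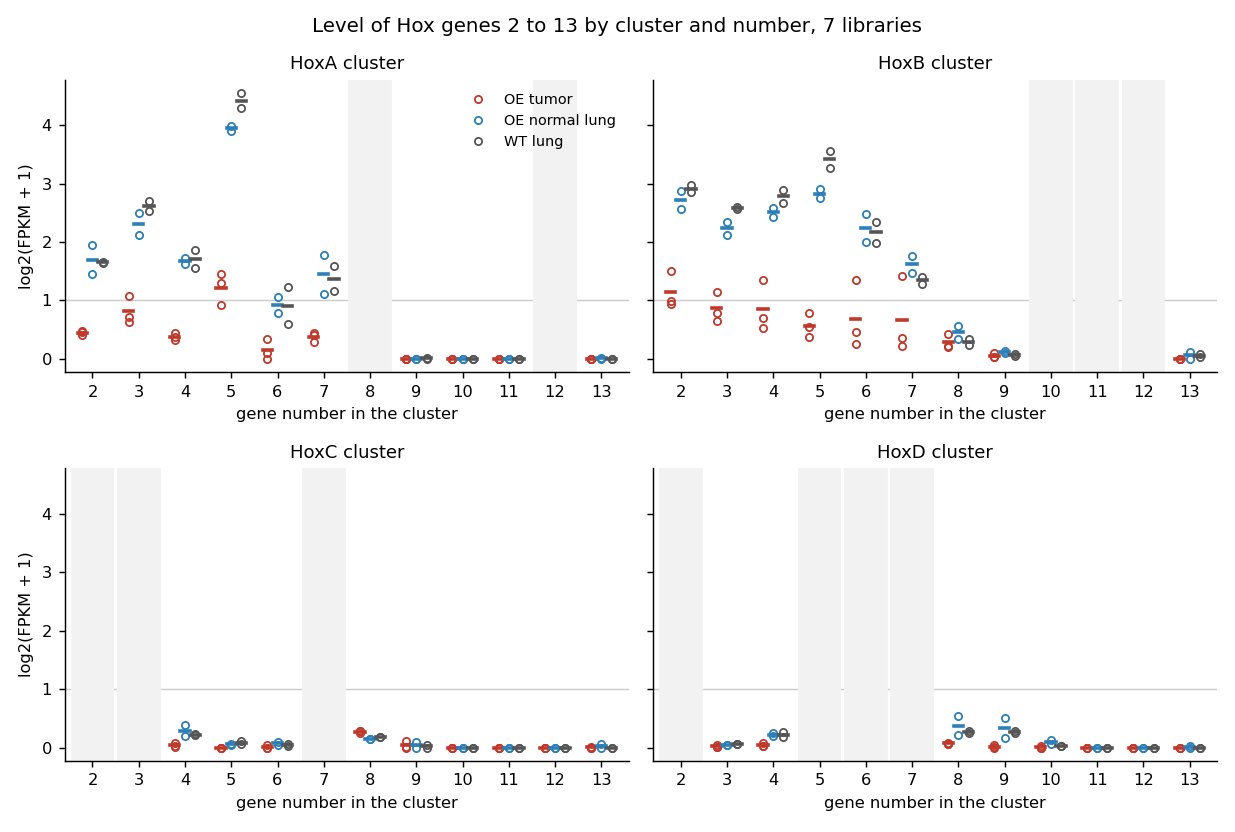
Level of the Hox genes of paralog groups 2 to 13 as log2(FPKM + 1), by cluster and gene number, with each of the 7 libraries as a circle, bars at group means, a line at 1 FPKM and grey bands where a cluster has no gene. Only groups 2 to 7 of HoxA and HoxB rise above that line, and the 3 tumors lie below the 4 normal lungs at most of these positions.

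In the tumors the Hox genes were low as a group. Summed over all 39 genes, Hox expression was 13.5, 5.54 and 7.32 FPKM in tumors 1 to 3, 58.7 and 49.3 FPKM in OE normal lung and 62.0 and 71.1 FPKM in WT lung. The highest tumor was below the lowest normal lung, and the group means were 6.15-fold lower in tumors than in OE normal lung and 7.57-fold lower than in WT lung. At least 1 FPKM was reached by 7 Hox genes in tumor 1, by none in tumor 2 and by Hoxa5 alone in tumor 3, against 11 or 12 in each normal lung. No Hox gene in any tumor exceeded the 1.83 FPKM of Hoxb2 in tumor 1. These are bulk samples, in which fewer cells of a type and less RNA per cell cannot be told apart.

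Every tumor was below every normal lung for 18 of the 39 Hox genes, against 24.6% of all genes measured, and above every normal lung for 1, Hoxc8, against 15.1% of all genes. Taken by normal group, 21 Hox genes had every tumor below both OE normal lungs (30.9% of all genes) and 19 had every tumor below both WT lungs (29.2%). Of the 12 Hox genes tested, 11 were called lower in tumors than in OE normal lung and the same 11 were called lower than in WT lung, and none was called higher. Over all genes tested, 38.1% were called against OE normal lung and 38.2% against WT lung in either direction. Split by direction, 24.9% were called lower and 13.1% higher than OE normal lung, and 23.2% lower and 15.0% higher than WT lung. All of the 12 except Hoxa5 passed the expression minimum through the normal lungs, with at most 1 tumor at 1 FPKM, so a difference was built into their selection and the count of 11 is a description. The median log2 difference of the 12 was -1.43 against OE normal lung and -1.60 against WT lung, beside medians of -0.11 and -0.06 over all genes tested.

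All 39 genes can enter only without the expression minimum. With no minimum and a pseudocount of 0.1 FPKM, a setting chosen after the data were seen, 15 of 39 Hox genes were called lower and 1 higher in tumors than in OE normal lung, where 17.3% of all 22447 genes were lower and 7.53% higher. Against WT lung 13 were called lower and 1 higher, where 15.4% of all genes were lower and 8.44% higher. The median log2 difference of the 39 in this setting was -0.45 against OE normal lung and -0.28 against WT lung, beside -0.01 and 0 over all genes. Hoxd8, Hoxd9 and Hoxd10 passed against OE normal lung and missed the threshold against WT lung, and Hoxc5 did the reverse, but these differences between comparisons were not tested.

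**Figure D2:**
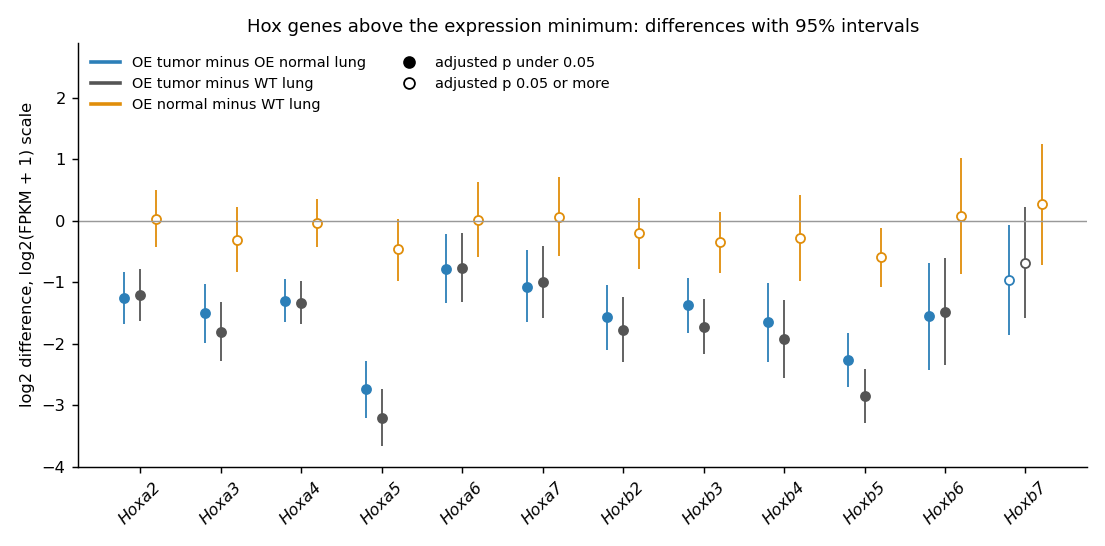
Log2 differences on the log2(FPKM + 1) scale with 95% intervals from limma for the 12 Hox genes tested, with filled points at adjusted p under 0.05. In both tumor comparisons the points lie below 0 for each gene and Hoxb7 alone is open, and for OE normal against WT lung each point is open.

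Within HoxA the largest differences were those of Hoxa5, a gene known for its part in lung and diaphragm development. Hoxa5 was at 1.72, 0.897 and 1.45 FPKM in tumors 1 to 3, at 14.9 and 14 FPKM in OE normal lung and at 18.5 and 22.4 FPKM in WT lung. It was the most abundant Hox gene in every normal lung, and the tumors did not overlap with either normal group. Its mean was 10.7-fold lower in tumors than in OE normal lung (-2.73, SE 0.19, limma adjusted p = 3.37e-04) and 15.1-fold lower than in WT lung (-3.20, SE 0.19, adjusted p = 2.37e-04). Even so, Hoxa5 was the one Hox gene to reach 1 FPKM in more than 1 tumor.

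On its front side lie Hoxa2 to Hoxa4, which pattern the hindbrain and the pharyngeal arches. Hoxa2, needed for the identity of the second arch, was at 0.396, 0.369 and 0.327 FPKM in the tumors, at 2.86 and 1.73 FPKM in OE normal lung and at 2.17 and 2.13 FPKM in WT lung. The tumors lay close together and far below all 4 normal lungs, with differences of -1.25 (SE 0.17, limma adjusted p = 0.00280) and -1.21 (SE 0.17, adjusted p = 0.00327). Hoxa3, needed for the thymus and parathyroid, was at 1.11, 0.555 and 0.643 FPKM in the tumors, 4.61 and 3.36 FPKM in OE normal lung and 4.77 and 5.49 FPKM in WT lung. Tumor 1 was the highest tumor and still under every normal lung, and the differences were -1.50 (SE 0.20, adjusted p = 0.00231) and -1.80 (SE 0.20, adjusted p = 0.00123). Hoxa4 was at 0.353, 0.257 and 0.295 FPKM in the tumors, 2.32 and 2.07 FPKM in OE normal lung and 1.92 and 2.64 FPKM in WT lung. Both normal groups overlapped for Hoxa4 and the tumors were apart from them, with differences of -1.30 (SE 0.15, adjusted p = 0.00138) and -1.33 (SE 0.15, adjusted p = 0.00128).

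On its back side Hoxa6 and Hoxa7, which pattern the thoracic skeleton, were less abundant and less evenly measured. Hoxa6 was at 0.260 and 0.0677 FPKM in tumors 1 and 2 and listed at 0 in tumor 3, at 1.09 and 0.715 FPKM in OE normal lung and at 1.33 and 0.503 FPKM in WT lung. The tumors did not overlap with either normal group, OE normal lung lay within the wide range of the WT lungs, and the calls were narrow, at -0.78 (SE 0.23, limma adjusted p = 0.0399) and -0.76 (SE 0.23, adjusted p = 0.0430). Hoxa7 was at 0.352, 0.225 and 0.330 FPKM in the tumors, 2.44 and 1.16 FPKM in OE normal lung and 2.01 and 1.23 FPKM in WT lung. Its differences were -1.07 (SE 0.24, adjusted p = 0.0161) and -0.99 (SE 0.24, adjusted p = 0.0210), and OE normal and WT lung overlapped. Quantile normalization ended the calls of Hoxa6 in both comparisons (adjusted p = 0.594 and 0.313) and of Hoxa7 (0.310 and 0.226), and single libraries did so too. Hoxa6 lost its call against OE normal lung without tumor 2, tumor 3 or either OE normal lung (adjusted p = 0.0894 to 0.192), and against WT lung without any of these or WT lung 1 (0.0618 to 0.22). Hoxa7 lost its call against OE normal lung without tumor 2 or OE normal lung 1 (0.0549 and 0.0757), and against WT lung without tumor 2, tumor 3 or WT lung 1 (0.0589 to 0.133). Behind Hoxa7 the cluster was at or near 0: Hoxa10 and Hoxa11 were listed at 0 in all libraries, Hoxa9 was above 0 only in WT lung 1 (0.00971 FPKM) and Hoxa13 only in OE normal lung 2 (0.0142 FPKM).

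Sequences just before the start sites are shown for a few genes at different positions and levels, to let positions with and without expression be seen beside each other. RefSeq promoter entries on build GRCm38.p6 matched 24 start sites of 22 of the 39 Hox genes, among them 6 of the 12 tested. The window is the 250 bases before the start, written on the strand of the gene, and capitals mark each CG pair, the dinucleotide that forms CpG islands, regions that Polycomb complexes are known to occupy. Hoxa5 (chr6:52204588-52204837, minus strand) is the most abundant Hox gene in normal lung, Hoxb4 (chr11:96318017-96318266, plus strand) is a called HoxB gene and Hoxa13 (chr6:52260881-52261130, minus strand) is near 0 in all libraries.
Hoxa5: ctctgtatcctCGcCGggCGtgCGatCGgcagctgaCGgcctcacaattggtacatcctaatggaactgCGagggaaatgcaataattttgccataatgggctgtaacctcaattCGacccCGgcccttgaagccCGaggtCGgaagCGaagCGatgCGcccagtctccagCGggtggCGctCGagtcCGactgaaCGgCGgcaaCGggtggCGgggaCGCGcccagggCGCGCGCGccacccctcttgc
Hoxb4: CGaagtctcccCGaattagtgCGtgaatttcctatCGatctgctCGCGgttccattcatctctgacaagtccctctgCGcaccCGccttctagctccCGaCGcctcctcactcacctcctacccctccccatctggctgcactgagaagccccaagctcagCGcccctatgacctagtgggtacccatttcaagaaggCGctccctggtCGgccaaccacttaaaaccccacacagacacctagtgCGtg
Hoxa13: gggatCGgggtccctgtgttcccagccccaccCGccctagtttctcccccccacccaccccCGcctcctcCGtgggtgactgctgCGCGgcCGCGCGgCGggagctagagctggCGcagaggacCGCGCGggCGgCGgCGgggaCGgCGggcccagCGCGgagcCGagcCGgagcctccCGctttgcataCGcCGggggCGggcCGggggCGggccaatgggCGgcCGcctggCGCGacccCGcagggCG
These windows hold 28, 14 and 35 CG pairs, and 7.61%, 29.4% and 2.97% of all 32851 promoters in the table hold at least as many. Hoxa13 thus has more CG pairs than the expressed Hoxa5, and over the 24 Hox windows the number ran from 2 to 35 with a median of 12.5, beside a median of 6 over all promoters.

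Hox proteins bind DNA together with TALE homeodomain partners, so the windows were searched on both strands for TGATTNAT, a joint Hox and Pbx site, and for TGACAG, the site of the Meis and Pknox partners. These motifs occur in 2.82% and 15.9% of all promoters and in 2 Hox windows each. The window of Hoxa2 (chr6:52164832-52165081, minus strand) holds both, and is shown with the matches in capitals, the first of them on the opposite strand.
Hoxa2: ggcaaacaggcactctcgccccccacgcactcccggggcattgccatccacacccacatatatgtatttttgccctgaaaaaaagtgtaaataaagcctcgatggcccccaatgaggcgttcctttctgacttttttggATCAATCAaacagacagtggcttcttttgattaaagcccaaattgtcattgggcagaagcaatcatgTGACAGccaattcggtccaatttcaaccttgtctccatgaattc
TAATTA, the core of many homeodomain sites, was found in 4.84% of all promoters and in 2 Hox windows, and AGGTCA, a nuclear receptor half-site, in 14% of all promoters and in 6 Hox windows, those of Hoxb4, Hoxc4, Hoxd3, Hoxd4, Hoxd8 and Hoxd10. A match is a string of letters and was not tested for binding.

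Within HoxB the pattern centred on the same paralog group. Hoxb5, with known parts in lung branching and the enteric neural crest, was at 0.727, 0.292 and 0.450 FPKM in tumors 1 to 3, at 6.46 and 5.73 FPKM in OE normal lung and at 8.62 and 10.8 FPKM in WT lung. All 3 groups were free of overlap, in the order tumor, OE normal lung, WT lung. Its mean was 12.4-fold lower in tumors than in OE normal lung (-2.26, SE 0.18, limma adjusted p = 4.55e-04) and 19.9-fold lower than in WT lung (-2.85, SE 0.18, adjusted p = 2.57e-04). Together Hoxa5, Hoxb5 and Hoxc5 made up 36.5% to 46.8% of the summed Hox FPKM in the normal lungs and 18.1% to 25.9% in the tumors, without overlap.

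Hoxb2, Hoxb3 and Hoxb4 held a larger share of their normal level than Hoxb5 in each tumor. Hoxb2, a hindbrain gene, was at 1.83, 0.908 and 0.985 FPKM in the tumors, 6.30 and 4.88 FPKM in OE normal lung and 6.21 and 6.87 FPKM in WT lung. The tumors were apart from all normal lungs, 4.51-fold lower than OE normal lung (-1.57, SE 0.22, limma adjusted p = 0.00273) and 5.27-fold lower than WT lung (-1.77, SE 0.22, adjusted p = 0.00179). Hoxb3 was at 1.21, 0.574 and 0.726 FPKM in the tumors, 4.08 and 3.35 FPKM in OE normal lung and 4.91 and 5.07 FPKM in WT lung. Here too no tumor reached a normal lung, with differences of -1.37 (SE 0.19, adjusted p = 0.00251) and -1.72 (SE 0.19, adjusted p = 0.00116). Hoxb4, known for expanding blood stem cells, was at 1.54, 0.439 and 0.627 FPKM in the tumors, 4.40 and 4.99 FPKM in OE normal lung and 5.35 and 6.44 FPKM in WT lung. Tumor 1 held more Hoxb4 than the other tumors, and the differences were -1.65 (SE 0.26, adjusted p = 0.00446) and -1.92 (SE 0.26, adjusted p = 0.00266). Hoxb1 was above 0 only in WT lung 1, at 0.0107 FPKM.

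Behind Hoxb5 the tumors parted from each other. Hoxb6 was at 1.54, 0.198 and 0.369 FPKM in tumors 1 to 3, 4.57 and 3.01 FPKM in OE normal lung and 2.96 and 4.07 FPKM in WT lung. It was called lower in both comparisons (-1.55, SE 0.36, limma adjusted p = 0.0172, and -1.48, SE 0.36, adjusted p = 0.0209). The call against OE normal lung was lost without tumor 3 or either OE normal lung (0.0545 to 0.113), and that against WT lung without tumor 2, tumor 3 or either WT lung (0.0564 to 0.132). Hoxb7 was at 1.67, 0.159 and 0.280 FPKM in the tumors, 2.40 and 1.77 FPKM in OE normal lung and 1.44 and 1.64 FPKM in WT lung, so that tumor 1 lay above both WT lungs and the other tumors far below. Hoxb7 was the one tested Hox gene that was not called, at -0.96 (SE 0.37, adjusted p = 0.0871) against OE normal lung and -0.68 (SE 0.37, adjusted p = 0.190) against WT lung. Without tumor 1 it was called in both, at -1.33 (adjusted p = 7.93e-04) and -1.06 (adjusted p = 0.00183). Hoxb8, a gene of myeloid progenitors, was at 0.349, 0.168 and 0.152 FPKM in the tumors and 0.181 to 0.482 FPKM in the normal lungs, and the groups overlapped. Hoxb9 stayed at or under 0.102 FPKM in all libraries, and Hoxb13, a gene of the prostate and hindgut, was listed at 0 in the tumors and OE normal lung 2 and at no more than 0.0878 FPKM elsewhere.

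The tumors differed along the HoxB cluster. As a share of the mean of the 4 normal lungs, tumor 1 held 30.1% of Hoxb2, 27.8% of Hoxb3, 29.1% of Hoxb4, 9.20% of Hoxb5, 42.1% of Hoxb6, 92.0% of Hoxb7 and 117% of Hoxb8. Its share was thus lowest at Hoxb5 and climbed from there to Hoxb7, the last gene of the expressed stretch. Tumor 2 held 15.0%, 13.2%, 8.30%, 3.69%, 5.41%, 8.79% and 56.4% of the same genes in the same order, and tumor 3 held 16.2%, 16.7%, 11.8%, 5.69%, 10.1%, 15.4% and 50.9%. In both of these tumors Hoxb5 was again the lowest of the HoxB genes from Hoxb2 to Hoxb8, and the climb stayed under 20% up to Hoxb7. Hoxb8 was at no more than 0.482 FPKM in any library and was not tested. Behind it the shares of Hoxb9, at no more than 0.102 FPKM, were 38.7%, 40.1% and 108% in tumors 1 to 3. Summed over Hoxb6 to Hoxb8, tumor 1 was at 61.7% of normal lung and tumors 2 and 3 at 9.11% and 13.9%. For Hoxb2 to Hoxb5 the shares were 22.5%, 9.37% and 11.8%, and for Hoxa2 to Hoxa7 they were 14.4%, 8.15% and 10.5%. Tumor 1 was the highest of the tumors for 12 of the 12 tested Hox genes, beside 55.3% of all genes tested.

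**Figure D3:**
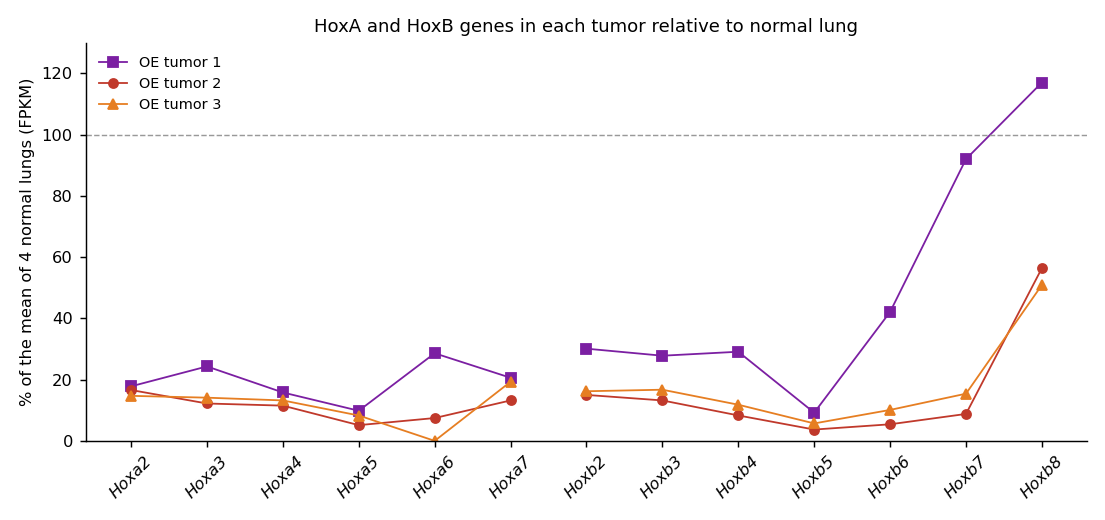
Level of Hoxa2 to Hoxa7 and Hoxb2 to Hoxb8 in each tumor as a percentage of the mean of the 4 normal lungs, in cluster order. Tumor 1 climbs from 9.20% at Hoxb5 to 92.0% at Hoxb7, while tumors 2 and 3 stay under 20% there.

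The HoxC and HoxD clusters were near the limit of measurement in every library. Total reads are not known, but low FPKM values come in steps of single fragments, and the ratio of steps shared by the most low genes would put the depth of tumors 2 and 3 at 1.72 and 1.27 times that of tumor 1, of the OE normal lungs at 1.20 and 1.87 times and of the WT lungs at 1.46 and 1.37 times. These ratios rested on 49 to 167 genes, and the next most frequent ones, on 39 to 87 genes, were 0.859 and 2.54 for the tumors, 0.599 and 0.933 for OE normal lung and 0.73 and 0.683 for WT lung, so the order of the depths is not settled. Hoxc8, a gene of the brachial and thoracic axis, had the highest mean over the 7 libraries in its cluster, at 0.182, 0.221 and 0.216 FPKM in tumors 1 to 3, 0.102 and 0.112 FPKM in OE normal lung and 0.127 and 0.139 FPKM in WT lung. It was the one Hox gene with every tumor above every normal lung, which holds for 5.12% of the 4803 genes that are above 0 and under 1 FPKM throughout. In the fit with no minimum it was called higher at 0.56 (SE 0.07, limma adjusted p = 0.00829) and 0.39 (SE 0.07, adjusted p = 0.0214). Hoxc4 ran the other way, at 0.0165, 0.00959 and 0.0519 FPKM in the tumors and 0.151 to 0.300 FPKM in the normal lungs, where it was above Hoxc8 in each library, and it was called lower in that fit at -1.35 (adjusted p = 0.0214) and -1.08 (adjusted p = 0.0397). Hoxc5 was listed at 0 in all 3 tumors and was at 0.0249 to 0.0766 FPKM in the normal lungs, Hoxc6 and Hoxc9 overlapped between tumors and normal lungs, and Hoxc13 was above 0 in 2 libraries only.

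In HoxD, Hoxd8 had the highest mean, at 0.0478, 0.0418 and 0.0565 FPKM in the tumors, 0.160 and 0.449 FPKM in OE normal lung and 0.213 and 0.192 FPKM in WT lung. No tumor overlapped with a normal lung, and OE normal lung 2 was well above the others. In the fit with no minimum it was called lower than OE normal lung (-1.35, SE 0.32, limma adjusted p = 0.0427) and not against WT lung (-1.02, SE 0.32, adjusted p = 0.0874). Hoxd9 was listed at 0 in tumor 1 and was at 0.00900 and 0.0243 FPKM in tumors 2 and 3, against 0.116 and 0.422 FPKM in OE normal lung and 0.212 and 0.181 FPKM in WT lung. The gap between tumors and normal lungs was complete, with differences of -1.60 (adjusted p = 0.0442) and -1.42 (adjusted p = 0.0622). Hoxd4 was at 0.0196 to 0.0499 FPKM in the tumors and 0.128 to 0.196 FPKM in the normal lungs and was called lower in both (-1.03, adjusted p = 0.0155, and -1.0, adjusted p = 0.0173). Hoxd3 was at or under 0.0399 FPKM in all libraries, and Hoxd10 was called lower against OE normal lung (-0.67, adjusted p = 0.0237) and not against WT lung (-0.11, adjusted p = 0.634). Hoxd13, which patterns the digits, was above 0 only in OE normal lung 2, at 0.0207 FPKM. Of all 16 genes in paralog groups 9 to 13, the highest value in any library was the 0.422 FPKM of Hoxd9.

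OE normal lung and WT lung did not differ in any Hox call. With limma 0 of the 12 tested Hox genes and 0 of all 14057 genes tested passed the threshold, while 1 Hox gene and 1208 genes had an unadjusted p under 0.05. That Hox gene was Hoxb5, lower in OE normal lung at -0.59 (SE 0.20, 95% interval -1.07 to -0.11, adjusted p = 0.449). Hoxa5 was at -0.46 (SE 0.21, interval -0.97 to 0.04, adjusted p = 0.630). Both OE normal lungs were below both WT lungs for 5 of the 12 tested genes (Hoxa3, Hoxa5, Hoxb3, Hoxb4 and Hoxb5), beside 23.1% of all genes tested, and above both for Hoxb7, beside 29.6%. The median difference of the 12 was -0.12, and that of all genes tested 0.02. These SEs and intervals use 1 estimate of the spread over all 7 libraries, the tumors included. The median SE over all genes tested was 0.21, and it was 0.12 without tumor 1 and 0.12 with only the groups compared. In each of those 2 fits 0 of the 12 Hox genes were called, and 3 had an unadjusted limma p under 0.05.

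The counts of neighbouring Hox genes are not fully separate. In RefSeq the Hoxa3 locus overlaps Hoxa4, Hoxa5 and Hoxa6, the Hoxb3 locus overlaps Hoxb4, the Hoxd3 locus overlaps Hoxd4, and antisense transcripts overlap several of them. Neither the strand setting nor the annotation behind the FPKM values was given in the sources used here, so reads of overlapping or antisense genes cannot be told apart. Of other transcripts inside the clusters, Mira, a noncoding RNA between Hoxa6 and Hoxa7, was at 1.26, 0.935 and 1.22 FPKM in the tumors, 7.02 and 4.01 FPKM in OE normal lung and 9.02 and 4.12 FPKM in WT lung. The tumors were below every normal lung, as at the genes on either side of it. The antisense RNA Hoxaas3 was at 0 to 0.0359 FPKM in the tumors and 0.147 to 0.365 FPKM in the normal lungs. The microRNA genes of the clusters (Mir10a, Mir10b, Mir196a-1, Mir196a-2, Mir196b and Mir615) were listed at 0 in all 7 libraries. Whether these microRNAs were absent was not tested.

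Among the genes that flank the clusters, 5 of 12 tested were called lower and 1 higher in each tumor comparison. Over all genes tested, 24.9% and 23.2% were lower and 13.1% and 15.0% higher, and Ttll6 and Skap1, with no tumor at 1 FPKM, passed the expression minimum through the normal lungs. Ttll6, a tubulin glutamylase near the back end of HoxB, was at 0.245, 0 and 0.0309 FPKM in the tumors and 4.76 to 6.71 FPKM in the normal lungs (-2.56, SE 0.19, limma adjusted p = 4.01e-04, and -2.64, SE 0.19, adjusted p = 3.43e-04). Skap2, beside HoxA, was lower by smaller differences of -0.73 (adjusted p = 0.00371) and -0.55 (adjusted p = 0.0107). Snx11, in the neighbourhood of HoxB, was likewise lower by -0.63 (adjusted p = 0.0161) and -0.55 (adjusted p = 0.0271). Mtx2, a mitochondrial import gene beside HoxD, was higher by 1.02 in both (adjusted p = 0.0166 and 0.0170). The flanking genes thus did not share 1 direction. Of the ParaHox and Evx homeobox genes, 7 of 8 were listed at 0 in all libraries and Cdx1 was above 0 in OE normal lung 2 only.

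The TALE partners of Hox proteins were split. Of 8 tested, 5 were called lower and 1 higher than in OE normal lung, and 5 lower and none higher than in WT lung, beside 24.9% lower and 13.1% higher, and 23.2% lower and 15.0% higher, over all genes tested. Meis2, with no tumor at 1 FPKM, and Meis1 and Pknox2, with 1 each, passed the expression minimum through the normal lungs. Meis1, a cofactor that stabilises Hox binding, was at 1.43, 0.360 and 0.484 FPKM in the tumors, 11.2 and 9.16 FPKM in OE normal lung and 7.93 and 11.3 FPKM in WT lung (-2.71, SE 0.29, limma adjusted p = 0.00119, and -2.62, SE 0.29, adjusted p = 0.00133). Like the Hox genes, it was highest in tumor 1 among the tumors and did not overlap with normal lung. Meis2 was 9.74-fold and 8.48-fold lower (-2.0, SE 0.15, adjusted p = 3.74e-04, and -1.84, SE 0.15, adjusted p = 4.26e-04) and Pknox2 16.9-fold and 25.8-fold lower (-2.73, SE 0.30, adjusted p = 0.00121, and -3.29, SE 0.30, adjusted p = 6.30e-04). Pbx3 was 2.17-fold and 2.48-fold lower (-0.92, adjusted p = 0.00237, and -1.09, adjusted p = 0.00132). Pbx2 was the member called higher than in OE normal lung (0.45, adjusted p = 0.0326) and was not called against WT lung (0.34, adjusted p = 0.0740).

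Genes of retinoic acid signalling, which is known to switch on the front part of the Hox clusters, were lower or not called. Of 12 tested, 7 were called lower in each tumor comparison and none higher, beside 24.9% and 23.2% lower over all genes tested. Of the 7, Rarb, Cyp26b1 and Rxrg had no tumor at 1 FPKM and passed the expression minimum through the normal lungs. Aldh1a1, an enzyme that makes retinoic acid, was at 42.0, 19.9 and 24.2 FPKM in the tumors, 516 and 519 FPKM in OE normal lung and 657 and 629 FPKM in WT lung, differences of -4.20 (SE 0.30, limma adjusted p = 3.53e-04) and -4.51 (SE 0.30, adjusted p = 2.72e-04). Rarb, a retinoic acid receptor, was at 0.360 to 0.426 FPKM in the tumors and 3.73 to 7.11 FPKM in the normal lungs (-2.15, adjusted p = 0.00125, and -2.13, adjusted p = 0.00129). Cyp26b1, which breaks retinoic acid down, was lower as well (-2.47, adjusted p = 7.44e-04, and -2.29, adjusted p = 9.56e-04), so that genes for making and for removing retinoic acid moved in the same direction. The receptors Rxrg and Rarg were called lower too, Rxrg at -1.03 (adjusted p = 0.00397) against OE normal lung and -0.76 (adjusted p = 0.0123) against WT lung, and Rarg at -1.04 (adjusted p = 0.00923) and -1.37 (adjusted p = 0.00347).

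Genes of the chromatin complexes known to control Hox genes were called in both directions, as were genes at large. Of 11 PRC2 genes, 2 were called higher and 2 lower than in OE normal lung, and 4, Ezh2 itself among them, higher and 1 lower than in WT lung, beside 38.1% and 38.2% of all genes called in either direction. Ezh1, the other PRC2 methyltransferase, was lower in both (-0.78, limma adjusted p = 0.0339, and -0.86, adjusted p = 0.0254), and the accessory subunit Mtf2 was higher in both (0.42, adjusted p = 0.0450, and 0.50, adjusted p = 0.0248). Jarid2, an accessory subunit, was called higher than in WT lung (0.91, adjusted p = 0.0142) and not against OE normal lung (0.33, adjusted p = 0.224). Of 12 PRC1 genes, 2 were called higher and 1 lower than in OE normal lung, and 3 higher and 1 lower than in WT lung, beside the same 38.1% and 38.2%. Pcgf2 was higher (1.21, adjusted p = 0.00303, and 0.94, adjusted p = 0.00776) and Cbx7, which reads the PRC2 mark, was lower (-1.30, adjusted p = 0.00643, and -1.29, adjusted p = 0.00687). Of 10 trithorax and demethylase genes tested, 2 were called higher and 1 lower than in OE normal lung, and 1 higher and 1 lower than in WT lung, beside those shares. Ash2l was higher in both (1.03, adjusted p = 0.0158, and 0.99, adjusted p = 0.0186) and Psip1 lower in both (-0.91, adjusted p = 0.0237, and -0.88, adjusted p = 0.0263). Wdr5 was called higher than in OE normal lung (0.46, adjusted p = 0.0168) and not against WT lung (0.33, adjusted p = 0.0503).

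Markers of some cell types that lung holds were lower in the tumors, as the Hox genes were, but alveolar type 2 and most macrophage markers were not. Their part in the Hox result was not tested. For the counts below, 24.9% of all genes tested were called lower and 13.1% higher than OE normal lung. Against WT lung the shares were 23.2% lower and 15.0% higher. Fibroblast markers summed to 504, 95 and 133 FPKM in tumors 1 to 3, to 1646 to 1787 FPKM in OE normal lung and to 2097 to 2121 FPKM in WT lung. Of 12, 6 were called lower in each comparison and none higher, none was listed at 0 in a tumor, and Tcf21 was 16.4-fold and 16.8-fold lower (-3.85, limma adjusted p = 0.00174, and -3.88, adjusted p = 0.00170) while Col1a1 was not called (-0.08 and 0.05). Endothelial markers summed to 88.3 to 118 FPKM in the tumors and 1196 to 1488 FPKM in the normal lungs, with 10 of 10 called lower in both and none at 0. Smooth muscle and pericyte markers summed to 424, 99.5 and 125 FPKM in tumors 1 to 3, to 319 to 347 FPKM in OE normal lung and to 448 to 629 FPKM in WT lung, with 5 of 8 called lower and 1, Rgs5, higher in both. The 424 FPKM of tumor 1 came mostly from Acta2, the smooth muscle actin that myofibroblasts also make, which stood at 313 FPKM there, beside 26.8 and 36.9 FPKM in the others and 97.8 to 183 FPKM in normal lung, and was not called (-0.53, adjusted p = 0.701, and -1.18, adjusted p = 0.385). Without Acta2 the sums were 111, 72.7 and 88.5 FPKM in the tumors and 221 to 446 FPKM in the normal lungs. Inmt, a methyltransferase gene, made up most of the fibroblast sum of the normal lungs, at 1105 to 1575 FPKM, and without it the sums were 414, 76.0 and 107 FPKM in the tumors and 521 to 682 FPKM in the normal lungs. Leaving out the most abundant gene of a list was chosen after the data were seen. Mesothelial markers summed to 8.23, 0.208 and 1.87 FPKM in the tumors and to 58.0 to 109.8 FPKM in the normal lungs, with 4 of 4 tested called lower in both.

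Tumor 1, the tumor with the most Hox expression, also had the highest summed fibroblast markers. They were at 26.4% of the mean of the normal lungs in tumor 1 and at 4.97% and 6.93% in tumors 2 and 3, and without Inmt at 69.2%, 12.7% and 17.9%. Smooth muscle and pericyte markers were at 97.3% against 22.8% and 28.8%, a gap that rested on Acta2, since without it they were at 36.1%, 23.7% and 28.8%. Myh11, the smooth muscle myosin, was lowest in tumor 1, at 1.92, 2.15 and 3.25 FPKM in tumors 1 to 3. Endothelial markers differed less between the tumors, at 8.81%, 6.59% and 7.52%. The high place of tumor 1 was not particular to fibroblast markers. Mesothelial markers were at 9.89%, 0.25% and 2.25%, and macrophage markers at 515%, 175% and 378%. Heart muscle markers were lowest in tumor 1, at 0.336%, 0.439% and 0.736%. So were lymphocyte markers, at 8.58%, 9.46% and 11.1%, but without Cd79b they were at 9.88%, 2.27% and 4.42%. Lymphocyte markers were lower in 8 of 8 genes against OE normal lung and 6 of 8 against WT lung, at 18.0 to 23.2 FPKM in the tumors and 46.8 to 544 FPKM in the normal lungs. The shares called lower over all genes tested were 24.9% and 23.2%, and those called higher 13.1% and 15.0%. Heart muscle markers, which lung carries in the walls of its veins, were lower in 6 of 6 in both, at 3.47 to 7.59 FPKM against 650.3 to 1492 FPKM, and Myl7 was listed at 0 in tumor 2. Alveolar type 2 markers moved the other way, with 7 of 8 called higher in both. Their sum was 12581 to 43731 FPKM in the tumors and 12514 to 19103 FPKM in the normal lungs. Sftpc set that overlap, at 35944 FPKM in tumor 1, listed at 0 in tumors 2 and 3, and at 10578 to 15915 FPKM in the normal lungs. Whether these 0 values mean absent RNA was not tested. Without Sftpc the sums were 7787, 12581 and 12640 FPKM in tumors 1 to 3 and 1936 to 3188 FPKM in the normal lungs. Macrophage markers summed to 446 to 1314 FPKM in the tumors and 138 to 377 FPKM in the normal lungs, with 1 of 8 called higher against OE normal lung, and 2 higher and 1 lower against WT lung. In the tumors that sum was mostly Chi3l3, a chitinase-like gene, at 1084, 364 and 864 FPKM there and 68.3 to 181 FPKM in the normal lungs. Without it tumors 1 to 3, at 230, 81.7 and 102 FPKM, and normal lungs, at 70.2 to 196 FPKM, overlapped. Tumor 1 was then at 180% of normal lung, against 63.8% and 79.6% in tumors 2 and 3.

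**Figure D4:**
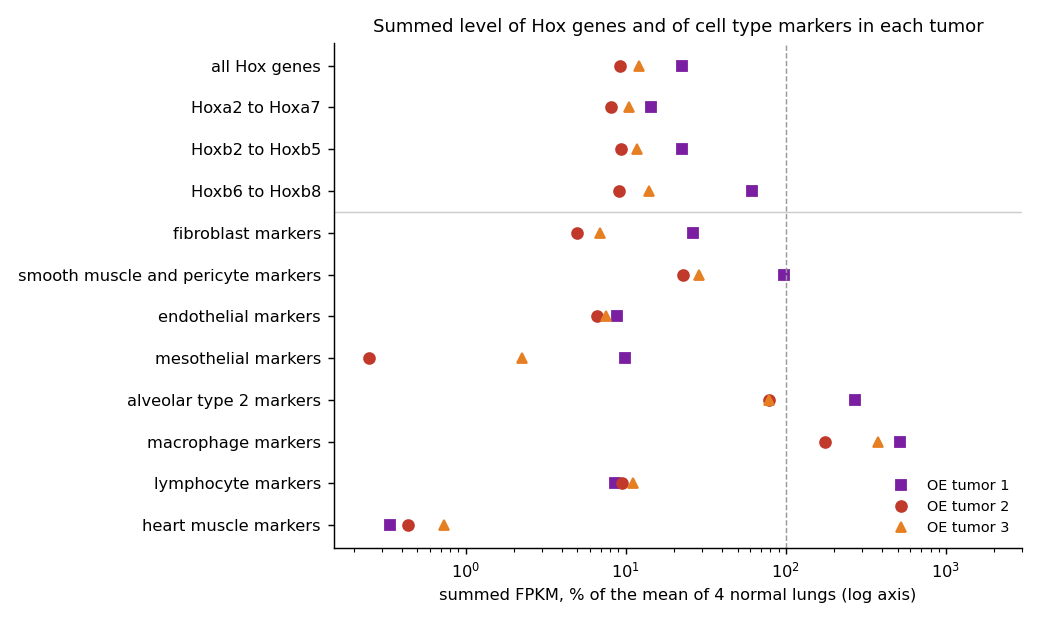
Summed FPKM of Hox genes and of cell type markers in each tumor, as a percentage of the mean of the 4 normal lungs on a log axis, with a dashed line at 100%. Hoxb6 to Hoxb8 and fibroblast, mesothelial and macrophage markers are higher in tumor 1 than in tumors 2 and 3, as are smooth muscle and pericyte markers through Acta2. Endothelial markers lie close together in the 3 tumors. The alveolar type 2 sum includes Sftpc, listed at 0 in tumors 2 and 3, without which tumors 1 to 3 are at 300%, 485% and 487%.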

How the data were processed

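The submitters' processing notes name TopHat2, TopHat and Cufflinks 2.0.0 and build mm9. The authors deposited 1 FPKM value per gene and library, and the annotation, library normalization and strand setting were not given in the sources used here. Of 22474 entries 27 carried a date in place of a symbol and were left out. Groups came from the labels. Values were used as log2(FPKM + 1), and limma 3.58.1 (R 4.3.3) was fitted to all 7 libraries in 3 groups, with a trended eBayes step, 2-sided p and Benjamini-Hochberg adjustment over 14057 genes. The fit was checked on simulated data. Depth in reads is unknown, so no detection limit is given, and relative depth was read from the most frequent ratio of low values (under 0.2 FPKM) between libraries. The Hox genes and gene lists were chosen with earlier results of these data known. Values per library are given for each called Hox gene and for the most abundant in each cluster, and lists by their counts, with up to 4 called members of a pathway named. Replicate numbers were taken only as names of libraries, since the labels state no pairing. Deviations of same-numbered libraries from their group means correlated at r = -0.03 to 0.03. In a group of 2 these deviations mirror each other, so the check cannot exclude a pairing or a batch. Promoters came from RefSeq on GRCm38.p6, and neighbours and overlaps from RefSeq without coordinates. Alternatives were a pseudocount of 0.1, no minimum, both together, median-of-ratios, TPM and quantile scaling, a replicate block, leaving out each library, a fit of the compared groups alone and, for marker sums, leaving out the most abundant gene. Python 3.11.15 with matplotlib 3.10.9 drew the figures. Values of single genes that are left out of the text are not reported here.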

Additional observations from a re-analysis of the deposited data

How the results depend on the processing

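Counts of called Hox genes ran from 8 to 12 of the 12 tested in each tumor comparison over the alternatives with the expression minimum. With no minimum, 15 or 16 of 39 were called against OE normal lung and 13 or 14 against WT lung, 1 of them higher each time. For OE normal against WT lung the count stayed at 0. The calls of Hoxa3, Hoxa4, Hoxa5, Hoxb2, Hoxb3, Hoxb4 and Hoxb5 held in all 15 alternatives in both tumor comparisons, and those of Hoxa6, Hoxa7 and Hoxb6 did not. Hoxa2 lost its call against OE normal lung under quantile normalization only (-0.53, adjusted p = 0.0641). All 12 differences stayed negative under each scaling, while the median over all genes moved from -0.11 to -0.33 (TPM) and 0.13 (quantile) against OE normal lung. Calls over all genes then split 1085 higher and 4883 lower (TPM) or 3390 and 2666 (quantile), beside 1844 and 3506 in the setting reported, and against WT lung 3212 and 2662 (quantile) beside 2115 and 3256.

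With the replicate number as a block, 9 Hox genes were called in each tumor comparison, and calls over all genes went from 5350 to 3130 (OE normal lung), from 5371 to 2999 (WT lung) and from 0 to 1 (OE normal against WT lung). The block ended the calls of Hoxa6 (adjusted p = 0.0779 and 0.0848) and Hoxb6 (0.0628 and 0.0732). Leaving out 1 library gave 2996 to 9620, 2445 to 9438 and 0 to 290 calls over all genes, the highest without tumor 1 in each. Calls between OE normal and WT lung numbered 1 with a pseudocount of 0.1, 38 with no minimum, 26 with both and 3 with only the groups compared. The cause was not tested. None of the differences of the 12 tested Hox genes between OE normal and WT lung passed the threshold, and 5 changed sign: Hoxa2 (-0.13 quantile, -0.21 to 0.29 leaving out 1 library), Hoxa4 (0.08 TPM, -0.19 to 0.13), Hoxa6 (-0.00 median of ratios, -0.17 quantile, -0.30 to 0.33), Hoxa7 (-0.08 quantile, -0.26 to 0.41) and Hoxb6 (-0.06 quantile, -0.16 to 0.31).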
